A study of Rattus norvegicus with 4 samples.

Results

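Metallothioneins and zinc transporters were followed in the ventral prostate of rats given the heterocyclic amine PhIP. The set holds 8 named genes, chosen by family membership with the contrast of PhIP against control already known, in which Mt2A had been seen to be lower. These are the metallothioneins Mt2A, Mt1a and Mt3, the zinc exporters Slc30a1, Slc30a2 and Slc30a4, and the zinc importers Slc39a1 and Slc39a8. All probe sets that the array's annotation assigns to exactly 1 of these symbols were taken, which gave 9 probe sets for 7 genes, out of 31099 probe sets and 14217 singly annotated genes on the array. Mt1a is no symbol of that annotation. The RefSeq gene table gives it as a synonym of Mt1, which is described below with the related genes. Since the members were picked with this contrast in view, their differences are given as a description and without a p-value.

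Groups of male F344 rats, aged 6 weeks, were compared. PhIP-treated rats received 300 mg/kg and were killed after 2 days, and control rats were not given the compound. Each group held 4 rats whose RNA was combined 2 by 2, so that each group has 2 arrays and each array averages 2 animals. The unit of replication is thus a pool of 2 rats. A p-value from limma sets a difference against the spread between pools, moderated by the spread of other probe sets of like brightness. Values are MAS5 signals, a linear brightness for each probe set. A signal can be compared between arrays but not, as an amount of RNA, between probe sets. Summed signals of marker lists are weighted to their brightest probe sets and serve only to compare arrays. Prostate markers were plain on all 4 arrays: probasin (Pbsn) lay between 4273 and 4898.1 and keratin 8 (Krt8) between 1418.6 and 1527.3. Among markers of the seminal vesicle and other lobes, Msmb was at most 2.3 and Svs5 at most 2.7, while Svs4 lay between 179.7 and 256.1. The epithelial gene Spink1l was near 0, between 3.3 and 10.3.

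Metallothioneins are small cysteine-rich proteins that bind zinc and copper in the cytosol, buffer free zinc and take up toxic metals such as cadmium. Their genes are induced by zinc through the transcription factor MTF1, which binds short metal response elements in their promoters, and also by glucocorticoids and oxidative stress. Proteins of the SLC30 (ZnT) family move zinc out of the cytosol, across the plasma membrane or into vesicles, and those of the SLC39 (ZIP) family move it in. The prostate is known as a zinc-rich gland, in the rat chiefly in its lateral lobe.

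Mt1, Mt2A, Mt3 and Mt4 follow one another on rat chromosome 19 in the RefSeq table. The 250 bases before the start of Mt2A, Mt1 and Mt3 are shown, with their matches to the core of the metal response element. Sequences are from RefSeq (build GRCr8), read 5′ to 3′ on the gene's strand. Capitals mark each match to TGCACNC or TGCGCNC on either strand, and no matches overlap in these 3 windows.

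Mt2A (chr19:10838709-10838958, minus strand): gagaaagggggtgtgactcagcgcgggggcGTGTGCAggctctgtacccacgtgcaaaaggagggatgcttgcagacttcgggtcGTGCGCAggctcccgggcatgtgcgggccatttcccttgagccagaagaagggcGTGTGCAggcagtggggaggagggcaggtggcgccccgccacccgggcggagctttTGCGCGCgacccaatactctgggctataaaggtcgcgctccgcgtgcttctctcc

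Mt1 (chr19:10832976-10833225, minus strand): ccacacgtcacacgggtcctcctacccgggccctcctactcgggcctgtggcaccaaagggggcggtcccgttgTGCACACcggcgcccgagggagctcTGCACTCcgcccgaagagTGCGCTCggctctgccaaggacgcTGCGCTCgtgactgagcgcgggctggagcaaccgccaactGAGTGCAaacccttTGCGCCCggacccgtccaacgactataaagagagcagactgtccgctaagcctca

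Mt3 (chr19:10856081-10856330, minus strand): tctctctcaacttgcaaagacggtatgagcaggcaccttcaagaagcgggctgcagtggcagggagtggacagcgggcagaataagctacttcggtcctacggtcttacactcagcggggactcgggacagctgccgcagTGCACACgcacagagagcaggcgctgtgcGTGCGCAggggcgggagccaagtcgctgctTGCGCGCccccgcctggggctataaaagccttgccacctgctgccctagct

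The Mt2A window held 4 matches, 1 on the gene's own strand and 3 on the other. The Mt1 window held 6 and the Mt3 window 3. Among all 33469 promoter windows of this length, 20.6% held at least 1 match, 1.17% at least 3, 0.266% at least 4 and 0.0269% at least 6. These windows are rich in G and C (66.0% for Mt2A, 66.4% for Mt1 and 62.8% for Mt3, against a median of 51.2% over all windows), as the motif is. A promoter window was available for all 8 genes. Slc30a1 and Slc30a4 each had 2 matches, Slc39a1 had 1 and Slc39a8 had none, while Slc30a2 had 2 in the first of its 2 annotated windows and none in the other. A match is a description of the letters, not of a bound site.

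Mt2A, an inducible metallothionein found in most tissues, was lower in PhIP-treated prostate. Its signal was 284.6 and 288.2 in PhIP-treated rats, against 411.9 and 517.4 in control rats. The PhIP arrays lay close together, and both were below both control arrays, which lay further apart from each other. The group means were 286.4 ± 2.55 in PhIP and 464.6 ± 74.6 in control (SD, n = 2 each). On the scale of log2(signal + 10), on which all differences here are given, PhIP minus control was −0.67 ± 0.13 (limma SE), or 1.59-fold lower. With arrays levelled on the spiked-in controls it was −0.44. Of the 18625 probe sets above the intensity filter (the 40th percentile of the mean log2 value), 2.97% had a lower difference.

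Mt3, a metallothionein known chiefly from the brain, had signals of 31.8 and 21.6 in PhIP-treated rats, against 18.4 and 10.5 in control rats. Both PhIP arrays lay above both control arrays, in the opposite direction to Mt2A. This probe set was dim: 46.3% of probe sets on the array were dimmer, against 91.1% for Mt2A. The means were 26.7 ± 7.21 in PhIP and 14.45 ± 5.59 in control (SD, n = 2 each), a difference of 0.59 ± 0.28. It was 0.36 without control 2 and 0.39 without PhIP 1.

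**Figure D1:**
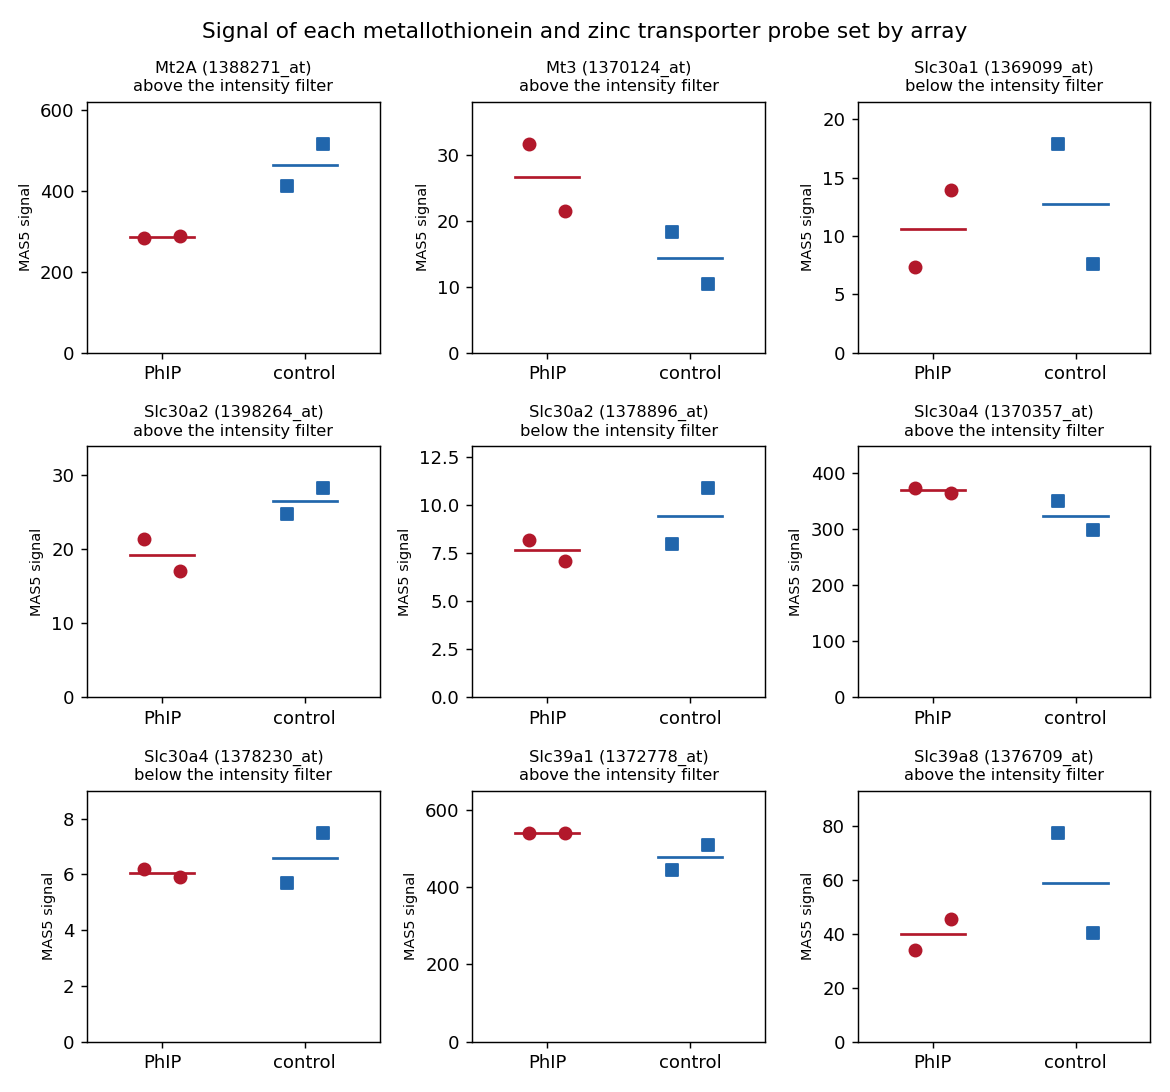
MAS5 signal (vertical axes, linear, from 0) of each of the 9 probe sets on the 2 PhIP arrays (red circles) and the 2 control arrays (blue squares), with lines at the group means. Mt2A is lower on both PhIP arrays (284.6 and 288.2) than on both control arrays (411.9 and 517.4), and the 3 probe sets below the intensity filter overlap between groups.

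The zinc exporters showed small or no separation of the groups. Slc30a4, a vesicular exporter needed for zinc secretion into milk, had signals of 373.8 and 365.4 in PhIP-treated rats, against 350.4 and 298.2 in control rats. Both PhIP arrays lay just above both control arrays, and the difference was 0.19 ± 0.12. It was 0.08 without control 2 and 0.30 without control 1. The other Slc30a4 probe set lay below the intensity filter, between 5.7 and 7.5 on all 4 arrays, with overlapping groups. Slc30a2, which loads zinc into secretory vesicles, was dim in both its probe sets. The brighter one had 21.3 and 17 in PhIP-treated rats, against 24.7 and 28.2 in control rats. The groups did not overlap, with a difference of −0.33 ± 0.23, and stood at −0.10 once arrays were levelled on the spiked-in controls. The dimmer one, below the filter, lay between 7.1 and 10.9 with overlapping groups. Slc30a1, the exporter of the plasma membrane and itself a target of MTF1, was also below the filter. Its signals of 7.3 and 13.9 in PhIP-treated rats and 17.9 and 7.6 in control rats overlapped, and its difference of −0.12 changed sign without control 1 (0.21) or without PhIP 1 (0.11), and was −0.46 without control 2.

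The importers went different ways. Slc39a1 (ZIP1), a ubiquitous importer of the plasma membrane, had signals of 541.3 and 539.2 in PhIP-treated rats, against 445.3 and 510.1 in control rats. Both PhIP arrays were above both control arrays, with a difference of 0.18 ± 0.11, which was 0.08 without control 1 and 0.27 without control 2. Slc39a8 (ZIP8), which carries zinc, manganese and cadmium, had 34.1 and 45.7 in PhIP-treated rats, against 77.6 and 40.2 in control rats. Only control 1 stood apart: the difference was −0.42 ± 0.29 with all arrays, −0.02 without control 1 and −0.82 without control 2.

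Of the 9 member probe sets, 6 passed the intensity filter, each for a different gene, and 3 did not. Among these 6, the groups did not overlap in 3 that were higher in PhIP (Mt3, Slc30a4 and Slc39a1) and in 2 that were lower (Mt2A and Slc30a2). The same held for 19.8% of all 18625 probe sets in the higher direction and 26.0% in the lower, and nothing is read from the members' counts, since the contrast was used to choose them. None of the 6 was among the probe sets past limma's adjusted p of 0.05, which numbered 5 of 18625 (0.0268%). Nothing is read from that either, since limma ran on the values with which the members were chosen.

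Array-wide scale touches these values. The signals of every array had been brought to an equal trimmed mean, but the median signal was 23.2 and 23.1 on the PhIP arrays and 25.5 and 27.4 on the control arrays. The 18 probe sets for transcripts spiked in at hybridization averaged −0.23 in PhIP minus control. The median difference over all probe sets above the filter was −0.03 as deposited, 0.11 with arrays centred on their medians and 0.20 with arrays levelled on the spiked-in transcripts. Of the 2416 probe sets at an unadjusted p under 0.05 as deposited, 41.3% were higher in PhIP. The share was 79.6% of 3164 with arrays centred on their medians and 91.6% of 4241 with arrays levelled on the spiked-in transcripts. Relative to the median of all probe sets, Mt2A stood at −0.65 and Mt3 at 0.62, which these scalings leave as they are by construction, and at −0.70 and 0.72 after quantile normalization. Mt2A, Mt3, the brighter probe sets of Slc30a2 and Slc30a4, Slc39a1 and Slc39a8 kept their direction under every scaling run. Slc30a1 and the dimmer probe sets of Slc30a2 and Slc30a4 changed sign. Control 1 correlated with the PhIP arrays (r = 0.98 and 0.979 across probe sets) more closely than with control 2 (0.972).

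**Figure D2:**
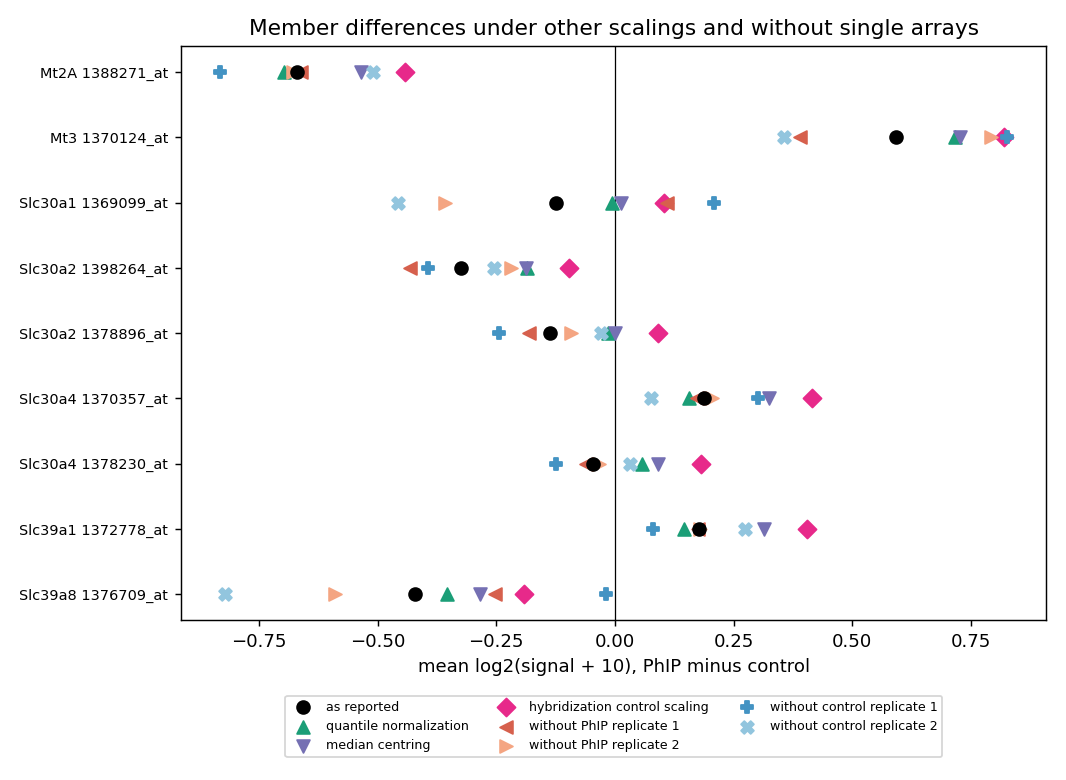
Difference of mean log2(signal + 10), PhIP minus control (horizontal axis), for each of the 9 probe sets as reported (black) and under 3 other scalings or without 1 array (coloured marks). Mt2A stays between −0.83 and −0.44 in the settings shown, and Slc39a8 reaches −0.02 without control 1.

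The rest of both transporter families and the other metallothioneins gave no called gene. Mt1, the gene of which Mt1a is a synonym, had a dim probe set of its own, with 13.4 and 21.8 in PhIP-treated rats, against 18.9 and 12.4 in control rats. The groups overlapped, with a difference of 0.10 ± 0.28 (limma adjusted p = 0.899). Another probe set, which lists Mt1 among 3 symbols, 1 of them no metallothionein, and so is assigned to no gene, had 473.3 and 466.2 in PhIP-treated rats, against 215.8 and 284.8 in control rats. Mt4, known from squamous epithelium, was below the filter at 6.4 and 3.8 in PhIP-treated rats, against 11.1 and 14.4 in control rats. The other 6 of the 8 listed metallothionein symbols had no probe set of their own.

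Of 7 other Slc30 genes, 5 were tested and 0 were called by limma, 3 being higher and 2 lower in PhIP, with a median of 0.05. This median was −0.04 without control 1, −0.10 without control 2 and 0.27 with arrays levelled on the spiked-in controls. The furthest from 0 was Slc30a3, which fills synaptic vesicles with zinc in neurons. It had 44.8 and 44.1 in PhIP-treated rats, against 56.6 and 67.7 in control rats (−0.40 ± 0.18, adjusted p = 0.406). Slc30a5 and Slc30a7, exporters of the early secretory pathway, stood at 0.11 ± 0.11 (adjusted p = 0.707) and −0.07 ± 0.14 (adjusted p = 0.843). Slc30a6, the partner of Slc30a5, stood at 0.05 ± 0.14 and Slc30a9 at 0.05 ± 0.14 in its brightest probe set.

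Of 12 other Slc39 genes, 7 were tested and 0 were called, 6 being lower and 1 higher, with a median of −0.11. The median turned positive with arrays centred on their medians (0.03) or levelled on the spiked-in controls (0.12), as the median of all probe sets shifted up too. It was −0.23 without control 1 and −0.19 without control 2. Slc39a11 had 509.5 and 335.4 in PhIP-treated rats, against 499.8 and 625.1 in control rats, with overlapping groups (−0.43 ± 0.20, adjusted p = 0.413). Slc39a13, a transporter of the secretory pathway needed in connective tissue, stood at −0.28 ± 0.16 (adjusted p = 0.5). Slc39a7, which releases zinc from the endoplasmic reticulum, had 1556.4 and 1540.3 in PhIP-treated rats, against 1541.7 and 1817.5 in control rats (−0.11 ± 0.10, adjusted p = 0.64). Slc39a11 was not called in any setting that kept all 4 arrays. Slc39a14, an importer of zinc and iron, stood at −0.16 ± 0.19 in its brighter probe set and at 0.086 ± 0.265 in the dimmer one.

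**Figure D3:**
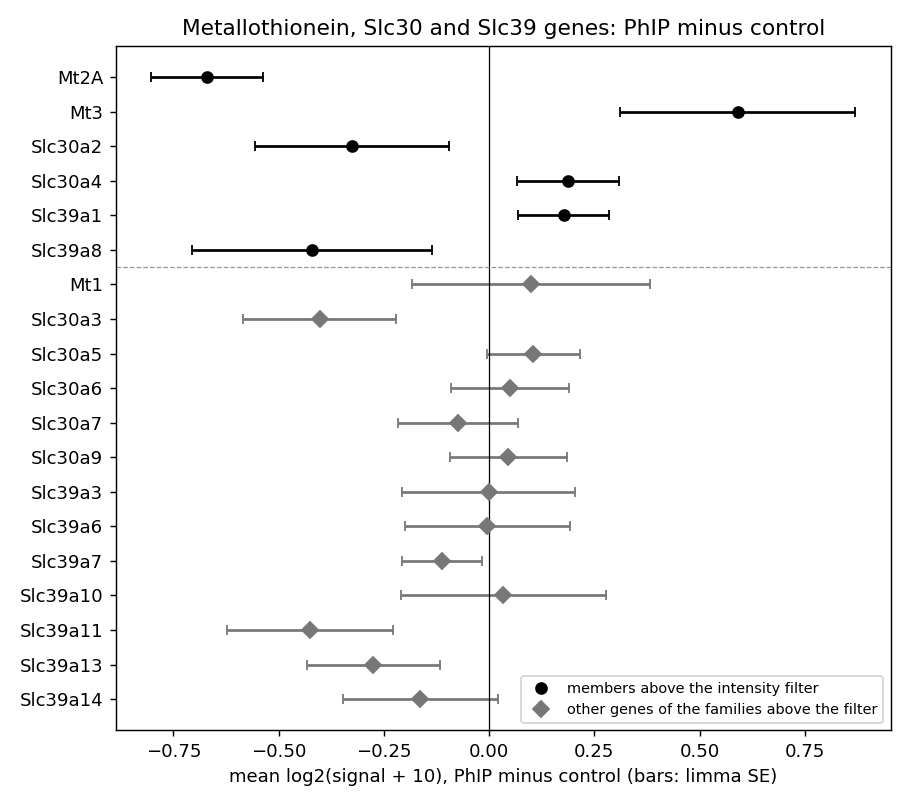
Difference of mean log2(signal + 10), PhIP minus control, with limma's standard error (bars) for the 6 members above the intensity filter (black circles) and the 13 other metallothionein, Slc30 and Slc39 genes tested (grey diamonds). Mt2A (−0.67) and Mt3 (0.59) lie furthest out on either side, and the 13 other genes lie between −0.43 and 0.11.

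Genes of zinc sensing and of other metals were set beside them. Mtf1, the zinc sensor, had 240.6 and 241.2 in PhIP-treated rats, against 194 and 224.1 in control rats (0.20 ± 0.13, adjusted p = 0.543), and its other probe sets stood at −0.15 ± 0.18 and −0.05 ± 0.26. Gclc, the first enzyme of glutathione synthesis, had 168.3 and 219.7 in PhIP-treated rats, against 132.4 and 113.9 in control rats (0.61 ± 0.17, adjusted p = 0.218). Its dimmer probe set stood at 0.385 ± 0.233, with overlapping groups. The selenoprotein gene Selenoh stood at 0.18 ± 0.09 (adjusted p = 0.464). All 6 tested genes of this list gave a median of 0.16, with 4 not overlapping and higher and 0 lower, against 21.6% and 26.9% of all 10507 genes. The median was 0.05 with the mean of each gene's probe sets, 0.30 with arrays centred on their medians and 0.39 with arrays levelled on the spiked-in controls. The 4 genes higher without overlap were Gclc, Selenoh, Mtf1 and Mtf2, each in its brightest probe set. Mtf2 stood at 0.15 ± 0.15 there. Its dimmer tested probe sets stood at 0.29 ± 0.27, −0.11 ± 0.20 (lower without overlap) and −0.19 ± 0.20.

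Among 13 copper genes tested, the lowest p of all related genes belonged to Commd1, which takes part in copper export. It had 109.9 and 93 in PhIP-treated rats, against 171.8 and 169.5 in control rats (−0.70 ± 0.15, adjusted p = 0.126). The copper ATPases differed in direction. Atp7a had 400.8 and 347.1 in PhIP-treated rats, against 277.9 and 269.6 in control rats (0.43 ± 0.12, adjusted p = 0.22). Atp7b had 22.4 and 28.2 in PhIP-treated rats, against 33.6 and 56.4 in control rats (−0.61 ± 0.26, adjusted p = 0.376). The copper list had a median of 0.03, with 8 genes higher and 5 lower. Among 11 iron genes, with a median of 0.05, the RNA- and iron-binding Pcbp2 stood at 0.33 ± 0.09 (adjusted p = 0.221), Pcbp1 at 0.14 ± 0.10 (adjusted p = 0.582) and the iron importer Slc11a2 at −0.18 ± 0.14 (adjusted p = 0.615). Dimmer Pcbp2 probe sets stood at 0.05 ± 0.16 and at −0.41 ± 0.26, the last of them lower without overlap. The iron median turned negative without control 2 (−0.24) and with the mean of each gene's probe sets (−0.01), and the copper median without PhIP 1 (−0.02).

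Genes that glucocorticoids induce, as they do metallothioneins, had a median of 0.07 over 12 tested, which was 0.17 without control 2 and near 0 (−0.003) without PhIP 1. Of the 12, 8 were higher and 4 lower. Without overlap, 3 were higher and 2 lower, against 21.6% and 26.9% of all 10507 genes. The lower ones without overlap were Fkbp5 (−0.18 ± 0.10) and Pdk4 (−0.25 ± 0.22), each in its brightest probe set. Their dimmer probe sets stood at 0.36 ± 0.23 for Fkbp5 and −0.125 ± 0.267 for Pdk4, both with overlapping groups. Dusp1, a phosphatase of MAP kinases, stood at 0.30 ± 0.11 (adjusted p = 0.317), the transcription factor Cebpb at 0.35 ± 0.13 (adjusted p = 0.344) and Tsc22d3 (GILZ) at 0.16 ± 0.07 (adjusted p = 0.405). Over all related lists, 0 of 55 tested genes were called by limma, as was 1 of 10507 genes (0.00952%). At an unadjusted p under 0.05 there were 5 higher and 2 lower, against 6.12% and 8.45% of all genes. No gene of these lists was called in any other setting that kept all 4 arrays. A fit without 1 array takes its spread from the other group's arrays alone, so its calls are not given.

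Markers of stromal cell types were lower alongside Mt2A. The 9 smooth muscle genes were all lower on both PhIP arrays than on both control arrays, although 0 of 9 were called by limma and 8 had an unadjusted p under 0.05. Their summed signal was 3687.6 and 3743.7 in PhIP-treated rats, against 6074 and 6019 in control rats. The 8 fibroblast genes summed to 7127.2 and 7194.7 in PhIP-treated rats, against 11941.2 and 9405.9 in control rats, with 7 of 8 not overlapping. The 5 adipocyte genes summed to 142.5 and 244.6 in PhIP-treated rats, against 410.6 and 301.5 in control rats. Of these 5, 3 were lower without overlap, while Adipoq (−0.88 ± 0.45) and Lipe (−0.11 ± 0.22) overlapped. The 6 endothelial genes summed to 206.3 and 209.1 in PhIP-treated rats, against 289.9 and 301.2 in control rats. Of the 9 epithelial genes, 7 were higher without overlap, 1 was lower without overlap and Pbsn overlapped, with a median of 0.14 and 4 genes higher at an unadjusted p under 0.05. Krt19 stood at 0.63 ± 0.12, Foxa1 at 0.61 ± 0.18 and the cadherin gene Cdh1 at 0.29 ± 0.07. Their summed signal overlapped between groups, at 21703.9 and 22430.4 in PhIP-treated rats, against 21910.8 and 21521.1 in control rats. Most of each sum came from the secretory genes Scgb1d2 (−0.11 ± 0.05) and Pbsn (−0.06 ± 0.08). Skeletal muscle (5 genes) summed to 495.9 and 416.4 in PhIP-treated rats, against 903.9 and 1437.5 in control rats. Part of the control sum came from control 2 alone, as in Myl1 with 5.2 on control 1 and 305.6 on control 2. Acta1 was alike on both control arrays (658.2 and 691.1), against 372.9 and 282.1 in PhIP-treated rats. Of 5 nerve genes, 4 were lower without overlap, each at an unadjusted p under 0.05, and Mbp was higher (0.49 ± 0.19), with a median of −0.62. Their sums overlapped, at 932 and 832.6 in PhIP-treated rats, against 993.9 and 885.7 in control rats. A large part of each sum was Mbp, with 505.9 and 454.9 in PhIP-treated rats, against 421.9 and 272.7 in control rats. Dimmer Mbp probe sets stood at −0.15 ± 0.19 and 0.39 ± 0.22. Of 5 leukocyte genes, 3 were higher and 2 lower, with Cd14 at 0.50 ± 0.09 and Lyz2 at 0.29 ± 0.06 but Cd68 at −0.44 ± 0.22 and Csf1r at −0.20 ± 0.30. Their sum, most of it Lyz2, was 6649 and 6601.8 in PhIP-treated rats, against 5366.9 and 5234.3 in control rats. Beside these counts, 21.6% of all 10507 genes were higher and 26.9% lower without overlap. At limma's unadjusted p under 0.05, 6.12% were higher and 8.45% lower. None of the tested marker genes was at 0 on any array. In such bulk tissue fewer cells of a type and less RNA per cell cannot be told apart, and the part of these markers in the lower Mt2A was not tested.

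**Figure D4:**
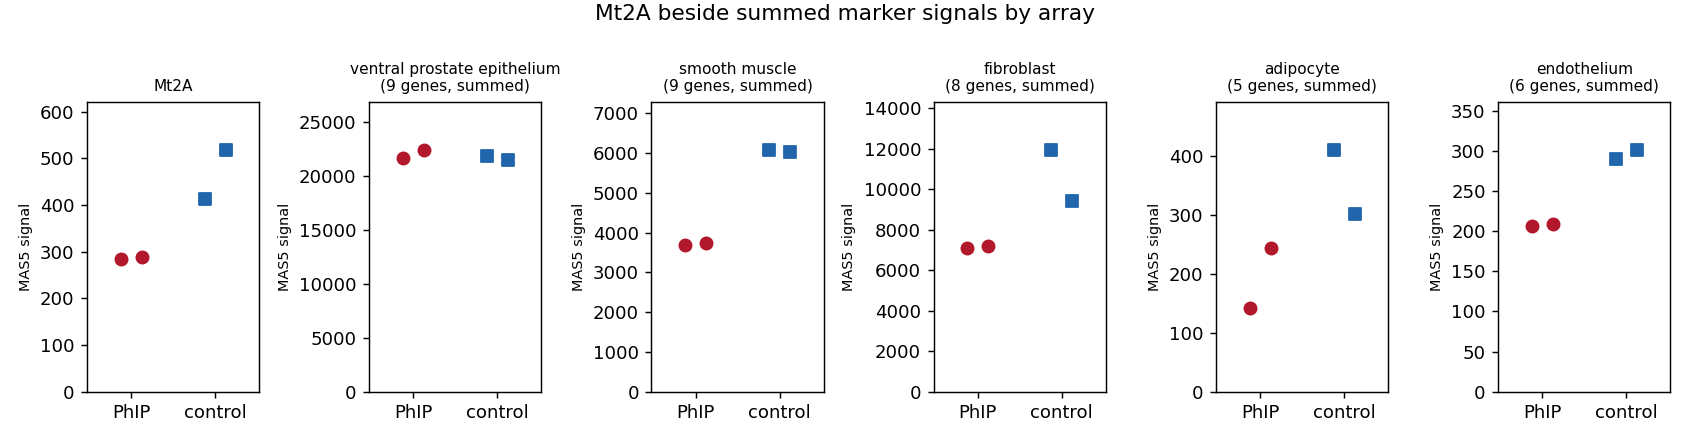
MAS5 signal of Mt2A and summed MAS5 signals of 5 marker lists (vertical axes, linear, from 0) on the 2 PhIP arrays (red circles) and the 2 control arrays (blue squares). Mt2A, smooth muscle, fibroblast, adipocyte and endothelial signals are lower on both PhIP arrays. The epithelial sums overlap, although 7 of the 9 genes in them are higher without overlap, against 21.6% of all genes. Among lists not drawn, the leukocyte sum is higher on both PhIP arrays, the nerve sums overlap and the skeletal muscle sum is lower.

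The profile of Mt2A over the 4 arrays was compared with those of 10506 other genes, by the root mean square difference of log2 values centred on each gene's own mean. Closest were Fancd2os (0.023), the prostaglandin F receptor gene Ptgfr (0.029), the RNA-binding protein gene Rbms3 (0.029), the adipokine gene Rarres2 (0.032) and Enox2 (0.038), and 118 genes lay within 0.1. Of these, Rbms3 had 148.3 and 143.4 in PhIP-treated rats, against 212.6 and 259.5 in control rats, while Fancd2os and Ptgfr were dim, at most 29.3 and 24.4. Closest to Slc39a8 were Plagl1 (0.017), Trarg1 (0.049), Fads1 (0.072), Aspn (0.072) and Cyp2j10 (0.077), with 14 genes within 0.1. Each of these 5 shared its high value on control 1, as in Fads1 with 104.5 on control 1 and 62.3 on control 2. Likeness over 4 arrays is a description and says nothing of shared control.

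The genes on either side of the metallothionein cluster with a tested probe set were Nup93, a nuclear pore gene, and Bbs2, a gene of the primary cilium. Nup93 had 156.3 and 162 in PhIP-treated rats, against 116 and 161.2 in control rats (0.20 ± 0.17). Bbs2 had 40.8 and 40.2 in PhIP-treated rats, against 39.1 and 35.1 in control rats (0.10 ± 0.19). Neighbours were genes whose lowest chromosome coordinate lay less than 500000 bases from that of Mt2A, on either side. Of the 9 tested, 7 were higher and 2 lower in PhIP. Among these 9, 6 were without overlap, and only 1 of the 6 was a lower one. Of all 10507 genes, 21.6% were higher and 26.9% lower without overlap. The largest difference was that of Nudt21, with 283.2 and 262.8 in PhIP-treated rats, against 207.1 and 170.6 in control rats (0.51 ± 0.14). The 2 lower neighbours were Herpud1, a gene of the endoplasmic reticulum stress response (−0.24 ± 0.12, without overlap), and Rspry1 (−0.22 ± 0.19, with overlap).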

How the data were processed

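The deposited intensities are linear MAS5 signals (the submitters' processing notes give the tool's name and no version). For detection calls and the scaling target, the entry is: not given in the sources used here. The number of arrays limits the precision. Biotin-labelled cRNA came from 5 µg of total RNA. Of 31099 probe sets, 57 manufacturer's controls were left out of the tests, and 20832 carried 1 symbol, 436 several and 9831 none.

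Signals were analysed as log2(signal + 10), a scale on which dim genes' changes come out smaller. Probe sets with a mean log2 value above the 40th percentile (a mean signal plus constant of 24.3, on the linear scale) were tested, 18625 in all. Testing used limma 3.58.1 in R 4.3.3 (moderated statistics, eBayes trend on intensity, two-sided p adjusted by Benjamini-Hochberg over all tested probe sets), on 2 residual and 5.67 prior degrees of freedom. A gene was represented by its brightest tested single-symbol probe set. The fit was tested on simulated data. Promoter sequences were the 250 bases before each RefSeq start, with the 50 bases after it left out. Plots used Python 3.11.15 and matplotlib 3.10.9.

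The members, lists and tests were chosen with earlier results of these data known. Named are all members, the called genes of each related list or, as none was called, the 3 with the largest moderated statistic, and the 5 genes most like Mt2A and Slc39a8. Slc30a1 was below the filter, so no likeness was computed for it. Other genes named as markers or neighbours were chosen to show the tissue or the locus. The neighbours, Slc30a6, Slc30a9, Slc39a14, Mt4, Fkbp5, Pdk4 and the single marker genes were chosen after their values were seen.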

Additional observations from a re-analysis of the deposited data

How the results depend on the processing

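The number of probe sets called (5) was 23 with a constant of 20, 44 with a filter at the 60th percentile, 165 after scaling to the hybridization controls and 52 with robust eBayes. It was 0 with no filter, after quantile normalization, after median centring and with eBayes without the trend. Without each array in turn it ranged from 0 (without either PhIP array) to 2334 (without control 1), with 462 without control 2. These were 12.5% and 2.48% of probe sets, and Mt2A was the member among them in both, from which nothing is read since it was chosen on this contrast. With the replicate number as a block it was 35. The labels do not say that same-numbered arrays belong together, and their deviations correlated at −0.056. The block called 0 related genes. The number of probe sets without overlap (8529) was 12826 with no filter and ranged from 12552 to 15147 without single arrays, since an array left out removes a condition to meet. The related genes called (0) ranged from 0 to 10 without single arrays. The cause of the other changes was not tested.

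Of 135 member differences under other settings, 17 moved by more than the spread between replicates, all of them with no constant or another scaling. The filter, eBayes and block settings leave a member's difference as it is. Leaving out 1 array cannot move it past this spread by construction, even where the sign changes. The 17 of 135 is therefore no measure of how stable the values are. Mt2A ranged from −0.83 to −0.44, and its value after scaling to the hybridization controls was −0.44. Mt3 ranged from 0.36 to 0.92 (no constant), and Slc39a8 from −0.82 to −0.02. Of 111 medians of related lists, 24 moved. No median could be computed for the other metallothioneins with the filter at the 60th percentile, which left none. Slc30a4 (brighter probe set) and Slc39a1 stood at 0.32 and 0.31 after median centring and at 0.415 and 0.405 with arrays levelled on the spiked-in controls. With no constant, signals of 0 were set to 0.1, the lowest positive signal. Precision is limited by 2 arrays in each group.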

Other observations

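The probe set that carries 3 symbols in the annotation, Mt1 and another metallothionein symbol among them and 1 that is no metallothionein, belongs to no gene above. Its signal was 473.3 and 466.2 in PhIP-treated rats, against 215.8 and 284.8 in control rats. Both PhIP arrays lay above both control arrays. The difference was 0.90 ± 0.15, with limma's adjusted p = 0.0778, and 99.3% of tested probe sets had a lower difference. Which of the 3 transcripts gave the signal was not tested.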
